A study of Mus musculus with 35 samples.

Results

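The collagen genes of the mouse aorta were taken as every gene of the expression table whose symbol is Col, a number, the letter a and a number, leaving out 1 of the 38 matches. That left 37 of 14174 genes, sorted by the trimers their products form into 10 fibrillar, 6 basement membrane, 6 FACIT (fibril-associated) and 15 other collagen genes. A further 7 collagen genes that were looked for were not among the 14174. RNA had been sequenced from 35 aortas of C57BL/6 mice in 12 groups. WT denotes wild-type mice, EKO mice without Apoe, which encodes a ligand for hepatic clearance of lipoprotein remnants, and EKO/hA-I the same Apoe-deficient mice with overexpressed human apoA-I, which is the principal apolipoprotein of HDL particles. Each genotype was kept on chow (4RF21) or on a Western diet (WD, TD.88137) from 8 weeks of age, and aortas were collected after 6 weeks of feeding, at 14 weeks of age, or after 22 weeks, at 30 weeks of age. There were 3 libraries a group but for 2 in the 6-week chow group of EKO/hA-I. Both EKO and EKO/hA-I lack Apoe, and by their labels they differ in the human apoA-I. The sources used here do not give the promoter of the apoA-I transgene or the sex of the mice. Total RNA came from the whole vessel between the aortic root and the iliac bifurcation, after perfusion with saline and removal of the surrounding fat.

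Collagens are triple helices of 3 chains. Fibrillar collagens (types I, III and V in the artery wall) carry tensile load, FACIT collagens sit on the surface of the fibrils, type IV forms the sheet under endothelium and around smooth muscle cells, type VI builds beaded microfilaments, and type VIII is a short-chain collagen made by vascular cells in remodelling vessels. In atherosclerosis, smooth muscle cells and fibroblasts lay down fibrillar collagen that forms the fibrous cap of a plaque. In a bulk sample such as this, fewer cells of a type and less RNA per cell cannot be told apart.

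The 250 bases before the RefSeq start site (GRCm38.p6) are shown for 3 genes on which the results below turn: Col8a1 and Col24a1, whose levels in 1 group lay above all other libraries, and Col3a1, with the highest mean level per kilobase of the family. Capitals mark a match to 1 of 5 motifs searched on both strands (TATAAA for TBP, CCAAT for NF-Y, GGGCGG for Sp1, TGANTCA for AP-1 and the CArG box of serum response factor, which can overlap TATAAA). A match on the other strand appears as its reverse complement, so GGGCGG reads CCGCCC.
Col8a1 (chr16:57754738-57754987, minus strand): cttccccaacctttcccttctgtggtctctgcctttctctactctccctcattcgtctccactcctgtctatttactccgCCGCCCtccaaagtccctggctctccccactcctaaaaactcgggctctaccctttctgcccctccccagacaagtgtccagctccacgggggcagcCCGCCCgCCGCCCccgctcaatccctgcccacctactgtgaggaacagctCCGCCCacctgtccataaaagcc
Col24a1 (chr3:145292222-145292471, plus strand): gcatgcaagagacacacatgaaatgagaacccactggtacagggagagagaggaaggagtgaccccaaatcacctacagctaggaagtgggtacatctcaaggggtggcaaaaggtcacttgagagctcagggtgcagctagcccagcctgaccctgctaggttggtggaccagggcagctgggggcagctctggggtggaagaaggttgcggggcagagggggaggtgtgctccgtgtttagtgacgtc
Col3a1 (chr1:45311288-45311537, plus strand): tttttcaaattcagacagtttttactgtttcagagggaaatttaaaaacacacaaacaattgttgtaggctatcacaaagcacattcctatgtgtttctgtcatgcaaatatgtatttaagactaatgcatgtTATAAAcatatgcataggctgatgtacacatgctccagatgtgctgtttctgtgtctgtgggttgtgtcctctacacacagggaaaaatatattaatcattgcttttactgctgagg
The Col8a1 window held 4 matches to GGGCGG, all on the other strand, and 60.8% G or C. The Col3a1 window held 1 TATAAA, from base -117 to -112, and 35.2% G or C, and the Col24a1 window held no match and 58.0% G or C. The median of all 32851 windows was 52.4%. Of 33 windows of 31 members, 20 held GGGCGG, against 32.74% of all windows. TATAAA was in 4 (12.37% of all windows), CCAAT in 10 (33.85%), TGANTCA in 1 (6.749%) and the CArG box in 1 (1.467%). A match is a string of letters and not a measured binding site.

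The deposited values are a normalised signal per gene that behaves like read counts scaled to a similar total, and each value below is in that unit unless stated. Depth was 6850000 to 25330000 reads per library, with a median of 15050000, inferred from the smallest step between low values. Apoe lay between 416 and 1276 in the 12 libraries titled WT and between 5.37 and 29.7 in the other 23. Apoe thus separated WT from the rest by title, but not EKO from EKO/hA-I, whose ranges overlapped. The tag of 1 library (WT WD 22 weeks replicate 3) says EKO and its title WT, and it was kept as WT. The aorta's smooth muscle marker Myh11 (1086 to 10222) and the endothelial marker Pecam1 (265 to 992) were present in every library. Markers of neighbouring tissue were too: the brown fat gene Ucp1 lay between 603 and 9750, and the skeletal muscle gene Acta1 between 1.01 and 767. Of the muscle markers, Myh1, Myh2 and Nppa were at 0 in a library of some groups. Differences are given as log2 differences ± SE of value plus 1, with n = 3 libraries per group unless stated, and adjusted p comes from limma over 14157 genes with a threshold of 0.05. Where libraries are not separate animals, the p-values reflect no more than the scatter of these samples.

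The 37 genes together took 0.536 to 2.55% of a library's signal (median 1.23%), and Col1a1, Col1a2 and Col3a1 alone took 34.1 to 61.9% of that share. Per kilobase of transcript, the mean level over 35 libraries was highest for Col3a1 (442), Col1a2 (430.3) and Col1a1 (340.3), the chains of collagens III and I. Col18a1, whose C-terminal fragment is endostatin, followed at 213, then Col4a1 (155), Col6a1 (132), Col4a2 (129) and Col6a2 (128). On the same scale Col15a1, the close relative of Col18a1, Col5a2, Col14a1 and Col5a1 lay between 52.0 and 58.1, and Col6a3 at 42.8. The lowest was the fibrillar Col24a1 at 0.0946. All 37 genes passed the filter of at least 1 in at least 3 libraries, and 30 of them were at 1 or more in every library. Col24a1 was at 1 or more in the 3 EKO WD 22 weeks libraries and 2 others, and Col6a4 in the same 3 and 5 others. Col24a1 passed the filter only through the group in which it was high, so its differences are given below as values with no p. The counts of genes called and the figures still include it.

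**Figure D1:**
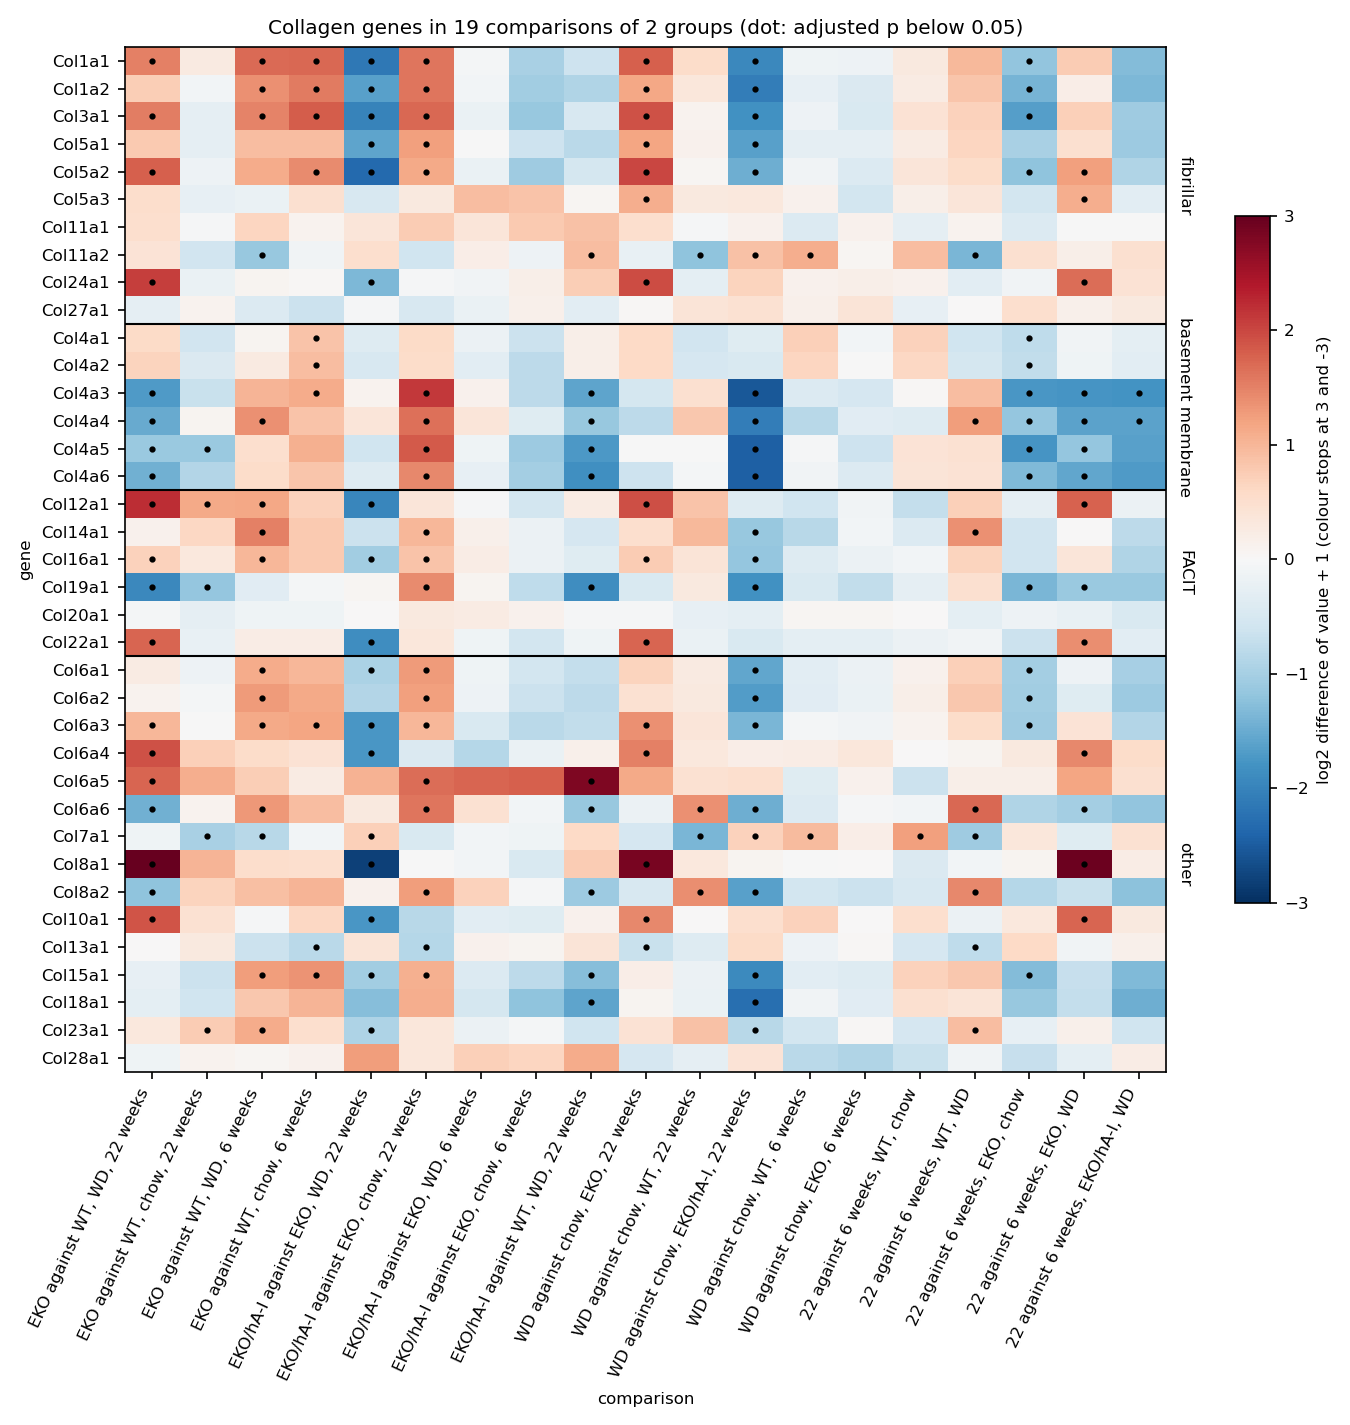
Log2 difference of value plus 1 for each of the 37 collagen genes (y axis, by class) in the 19 comparisons of 2 groups (x axis), red for higher and blue for lower, with a dot where the adjusted p was below 0.05. The column for EKO against WT on WD at 22 weeks is red for Col8a1 (3.55 ± 0.36) and blue for Col4a3 (-1.69 ± 0.31).

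After 22 weeks of WD, some collagen genes were higher in EKO aortas than in WT and others lower. Of the 37 genes, 12 were higher and 7 lower, beside 14.8% of all genes tested higher and 7.20% lower. The fibrillar genes were 4 higher (Col24a1 among them) and 0 lower of 10, with a median log2 difference of 0.75. The basement membrane genes were 0 higher and 4 lower of 6, with a median of -1.28 and 2 of the 6 differences positive. Differences between classes were not tested. The median over all genes was -0.01. FACIT genes were 3 higher and 1 lower of 6 and the remaining collagens 5 higher and 2 lower of 15. Fibrillar genes made up 1.33 ± 0.233% of the signal in EKO and 0.611 ± 0.0990% in WT (mean ± SD, n = 3), and basement membrane genes 0.215 ± 0.00351% and 0.191 ± 0.0308%.

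By log2 difference of value plus 1, a scale that understates the change of low genes, Col8a1 showed the largest rise of the family. Col8a1 (chromosome 16, 57624258 to 57754737, minus strand, GRCm38) encodes the α1 chain of type VIII collagen. It read 341, 193 and 238 in the 3 EKO libraries and 24.8, 24.2 and 14.2 in the 3 WT libraries, a 12.2-fold ratio of means (3.55 ± 0.36, adjusted p = 2.6e-08). The EKO WD 22 weeks libraries stood above all 32 others, the highest of which was 64.5 in EKO/hA-I WD 22 weeks replicate 3. The gene for the α2 chain of type VIII went the other way. Col8a2 read 2.82, 2.88 and 3.10 in EKO and 8.51, 9.87 and 6.19 in WT, without overlap (-1.21 ± 0.33, adjusted p = 0.0096, and 0.051 without WT WD 22 weeks replicate 2).

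Of the fibrillar genes, Col3a1 (chromosome 1, 45311538 to 45349706, plus strand), the chain of collagen III, read 5688, 4149 and 4865 in EKO and 2021, 1734 and 1354 in WT (1.53 ± 0.38, adjusted p = 0.0039). Its neighbour Col5a2 (chromosome 1, 45374321 to 45503282, minus strand), a chain of the fibril-nucleating collagen V, read 1312, 700.0 and 964 against 274, 309 and 251 (1.79 ± 0.34, adjusted p = 0.00025). For both genes every EKO library lay above every WT library. Col1a1, the α1 chain of collagen I, read 4679, 3465 and 4569 against 1649.9, 1610.1 and 1215 (1.51 ± 0.43, adjusted p = 0.011, and 0.055 without WT WD 22 weeks replicate 3). Col1a2, the α2 chain of the same trimer, read 3711, 2445 and 3542 against 2109.6, 2085 and 1594. Its groups were apart too, but the difference did not pass (0.73 ± 0.37, adjusted p = 0.16). Col24a1 (chromosome 3, 145292472 to 145552011, plus strand), a minor fibrillar chain, read 6.49, 2.94 and 2.46 against 0.131, 0.218 and 0 (difference 2.07 ± 0.27), and no library of another group exceeded 1.12.

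The FACIT gene Col12a1 (chromosome 9, 79598991 to 79718831, minus strand), whose product lies on the surface of collagen I fibrils, read 207, 80.9 and 89.2 in EKO and 20.1, 27.2 and 25.2 in WT (2.21 ± 0.30, adjusted p = 3.5e-06). EKO replicate 1 exceeded the sum of the other EKO values, and the call held without it. Col22a1, a FACIT collagen of tissue junctions, read 11.6, 2.49 and 2.30 against 0.458, 0.873 and 0.434 (1.74 ± 0.34, adjusted p = 0.00041, and 0.055 when only these 6 libraries were fitted). Col16a1 was higher by 0.69 ± 0.24 (adjusted p = 0.041, but 0.11 and 0.12 without WT WD 22 weeks replicate 1 and 3 in turn, and 0.13 and 0.088 without EKO WD 22 weeks replicate 1 and 3 in turn). Col19a1, a minor FACIT gene, read 2.69, 1.22 and 3.10 against 5.83, 14.5 and 16.4 (-1.93 ± 0.37, adjusted p = 0.00032). The groups of Col12a1, Col22a1 and Col19a1 did not overlap. Col14a1 did not pass (0.14 ± 0.32).

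In the basement membrane class, the main and the minor chains of type IV parted. The genes lie in head-to-head pairs: in RefSeq the 5′ ends of Col4a3 and Col4a4 on chromosome 1 are 113 bases past each other (a gap of -113), and Col4a5 and Col4a6 start 1275 bases apart on chromosome X. Col4a3 read 4.26, 5.31 and 8.60 in EKO and 19.8, 25.5 and 18.5 in WT (-1.69 ± 0.31, adjusted p = 0.00021), and Col4a4 5.97, 7.81 and 10.8 against 24.3, 30.0 and 20.1 (-1.51 ± 0.31, adjusted p = 0.00074). Col4a5 read 126, 84.2 and 121 against 200.1, 267 and 244 (-1.11 ± 0.34, adjusted p = 0.02). Col4a6 read 72.4, 60.0 and 78.3 against 156, 225 and 201 (-1.44 ± 0.36, adjusted p = 0.004). In all 4 genes every EKO library lay below every WT library, but for Col4a5 the adjusted p was 0.076 and 0.06 without WT WD 22 weeks replicate 2 and 3 in turn, and 0.097 without EKO WD 22 weeks replicate 2. Col4a1 and Col4a2, the chains of the common α1α1α2 network, did not pass (0.57 ± 0.23, adjusted p = 0.077, and 0.66 ± 0.24, adjusted p = 0.05, which is just above the threshold before rounding). Col4a1 read 1107, 1109 and 1223 in EKO and 659.6, 826 and 844 in WT, and Col4a2 954, 943 and 1001 against 481, 657 and 717, with every EKO library above every WT library.

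Type VI collagen, which forms beaded microfilaments, was mixed. Col6a3, the long α3 chain, read 936, 569 and 597 in EKO and 299, 381 and 343 in WT (1.01 ± 0.33, adjusted p = 0.03, but 0.093 and 0.071 without WT WD 22 weeks replicate 1 and 3 in turn, and 0.15 without EKO WD 22 weeks replicate 1). Its partners Col6a1 (0.24 ± 0.32) and Col6a2 (0.10 ± 0.38) did not pass. The alternative chains Col6a4 and Col6a5 rose (1.91 ± 0.32, adjusted p = 5.7e-05, and 1.75 ± 0.44, adjusted p = 0.0045), and Col6a6 fell (-1.45 ± 0.34, adjusted p = 0.0023). Col10a1, the hypertrophic cartilage collagen, read 11.7, 2.69 and 3.15 against 0.851, 0.327 and 0.543 (1.89 ± 0.36, adjusted p = 0.00026). Col15a1 (-0.25 ± 0.34), Col18a1 (-0.30 ± 0.53) and the fibrillar Col5a1 (0.78 ± 0.37) did not pass.

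Markers of cell types moved in the same comparison. Macrophage markers were 10 higher and 0 lower of 10, with a summed level of 226 to 414 in WT and 2788 to 3487 in EKO. Smooth muscle markers were 0 higher and 6 lower of 10, from 19674 to 31730.1 in WT to 7176 to 12133 in EKO. Adventitial fibroblast markers were 1 higher and 0 lower of 10, with a median log2 difference of -0.28. Their summed level was 2352 to 3522 in WT and 3561 to 4298 in EKO, so sum and median went opposite ways. Chondrocyte-like markers were 2 higher and 0 lower of 6 and endothelial markers 2 higher and 0 lower of 8. No marker of these 5 lists was at 0 in a library of either group. The part of these cell types in the collagen differences was not tested. With terms for brown adipocyte and skeletal muscle markers added to the fit, 19 collagen genes were called.

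Among 50 measured genes of collagen making and turnover, 16 rose and 2 fell, beside 14.8% of all genes tested higher and 7.20% lower. Prolyl and lysyl modification genes were 7 higher and 0 lower of 15, collagen-degrading proteases 5 higher and 0 lower of 6, receptors 3 higher and 2 lower of 9 and cross-linking enzymes 1 higher and 0 lower of 5. Chaperone and export genes were 0 higher and 0 lower of 7, and procollagen processing and fibril assembly genes 0 higher and 0 lower of 8. P4ha3, a catalytic subunit of prolyl 4-hydroxylase, read 19, 9.65 and 11 in EKO and 0.344, 0.872 and 0.575 in WT (3.11 ± 0.30, adjusted p = 1.3e-08). Lair1, an inhibitory collagen receptor of leukocytes, read 57.3, 38.5 and 49.6 against 3.08, 3.49 and 2.50 (3.61 ± 0.36, adjusted p = 1.9e-08). The groups of both genes were far apart. Ctsk, the collagen-degrading cathepsin K, also rose (2.57 ± 0.35, adjusted p = 2.7e-06).

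**Figure D2:**
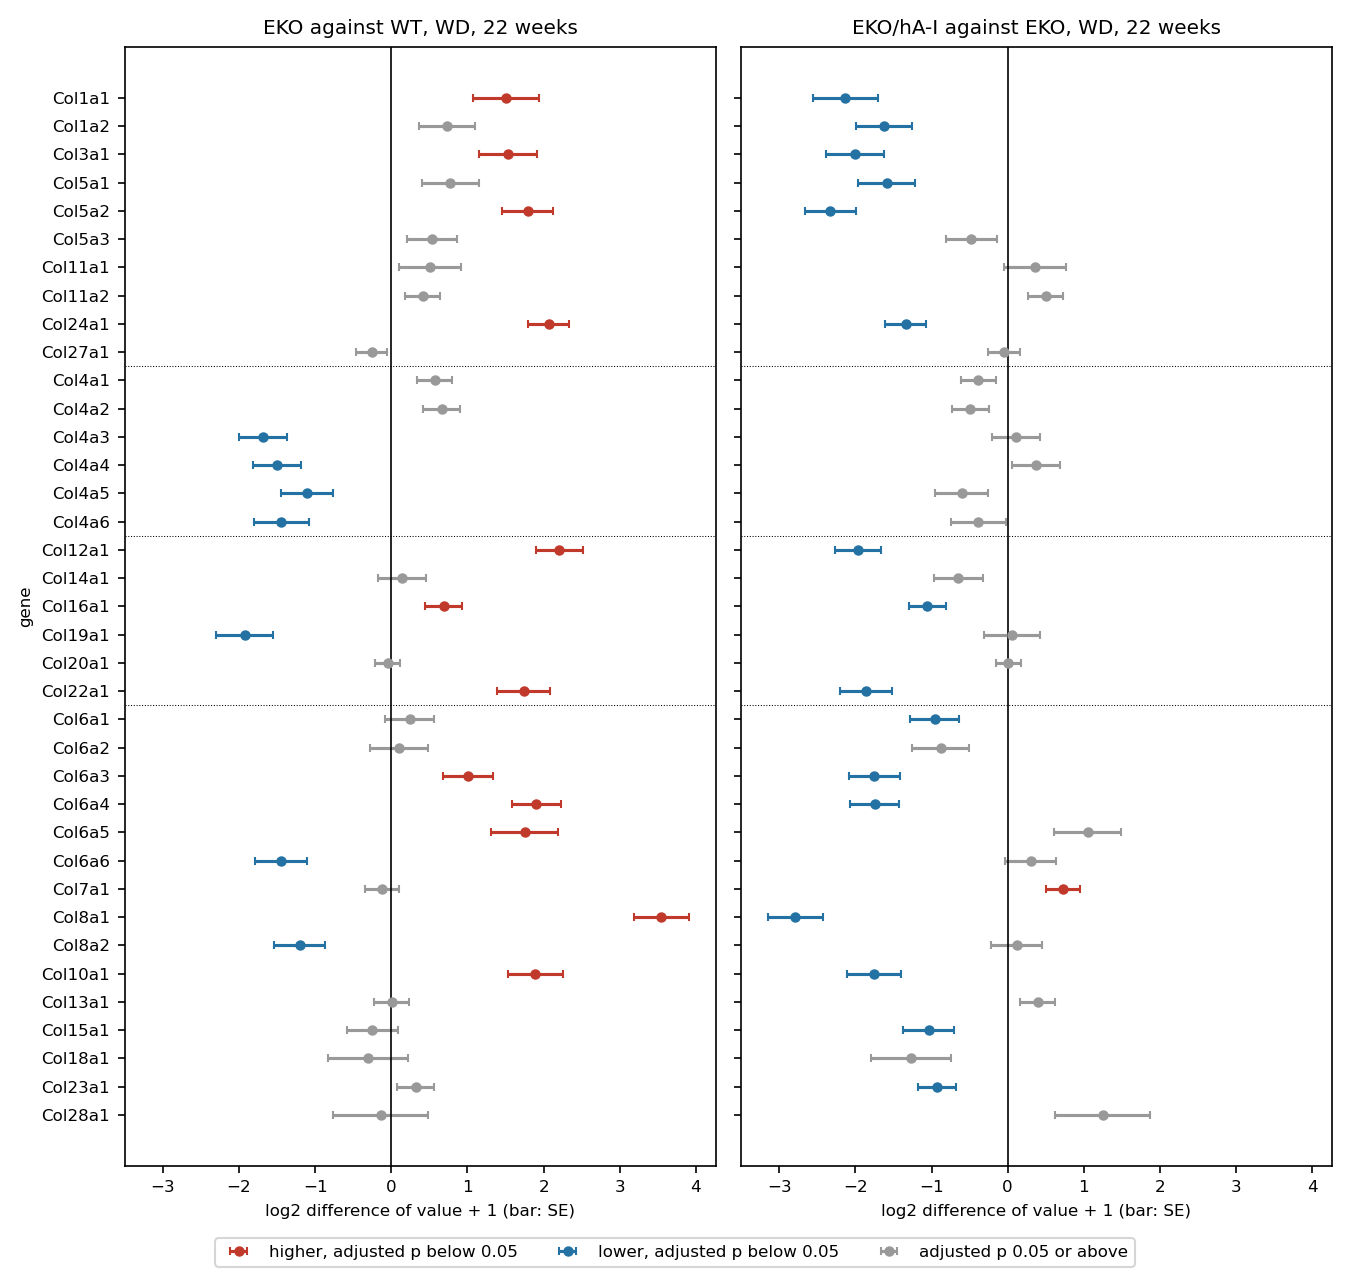
Log2 difference of value plus 1 for each of the 37 collagen genes on WD at 22 weeks, with EKO against WT in the first panel, EKO/hA-I against EKO in the second, bars for the SE and colour for genes that passed the threshold. Col8a1 lies at 3.55 ± 0.36 in the first comparison and -2.79 ± 0.36 in the second.

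EKO/hA-I was then compared with EKO at the same diet and duration. In EKO/hA-I 16 of the 37 collagen genes were lower than in EKO and 1 higher, beside 5.96% of all genes tested higher and 12.9% lower. Fibrillar genes were 0 higher and 6 lower (Col24a1 among them) of 10, FACIT genes 0 higher and 3 lower of 6, the remaining collagens 1 higher and 7 lower of 15 and basement membrane genes 0 higher and 0 lower of 6. The median log2 difference was -0.65, and -0.02 over all genes. The EKO libraries are shared with the comparison to WT, so values are given side by side.

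Col8a1 read 27.2, 24.9 and 64.5 in EKO/hA-I, below the lowest EKO value of 193 (-2.79 ± 0.36, adjusted p = 2.8e-06). Col3a1 read 1129, 819 and 1930.3 (-2.0 ± 0.38, adjusted p = 0.00041), Col5a2 156, 145 and 307 (-2.33 ± 0.34, adjusted p = 1.5e-05) and Col12a1 21.9, 24.4 and 43.0 (-1.97 ± 0.30, adjusted p = 3.3e-05). In each of these 4 genes EKO/hA-I replicate 3 was the highest of its group and still lay below every EKO library. Col6a3 fell by 1.75 ± 0.33, Col6a4 by 1.75 ± 0.32 and Col10a1 by 1.76 ± 0.36. These 7 genes kept the call with the brown adipocyte and skeletal muscle terms and without any 1 library, and Col10a1 lost it when only these 6 libraries were fitted (adjusted p = 0.065). The difference for Col24a1 was -1.34 ± 0.27.

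The other 9 calls were lost with the tissue terms. Col1a1 read 800.1, 760.4 and 1438 in EKO/hA-I (-2.13 ± 0.43, adjusted p = 0.00078, and 0.1 with the terms). Col1a2 read 969.6, 823 and 1373 (-1.62 ± 0.37, adjusted p = 0.0025, and 0.2). Col5a1 went from 0.0035 to 0.39 (-1.59 ± 0.37). Col22a1 (-1.86 ± 0.34), Col16a1 (-1.05 ± 0.24), Col23a1 (-0.93 ± 0.25), Col15a1 (-1.04 ± 0.34) and Col6a1 (-0.96 ± 0.32) moved to an adjusted p of 0.096, 0.25, 0.32, 0.39 and 0.86. Col7a1, the anchoring fibril collagen and the 1 rise (0.72 ± 0.23), moved to 0.057. In this comparison chondrocyte-like markers were 0 higher and 3 lower of 6, adventitial fibroblast markers 0 higher and 1 lower of 10, skeletal muscle markers 10 higher and 0 lower of 12 and brown adipocyte markers 3 higher and 0 lower of 9. The summed skeletal muscle level was 1221 to 4204 in the first group and 29.2 to 173 in the second, and the brown adipocyte level 6598 to 8343 and 1475 to 5665. Neither level overlapped between the groups, so genotype and tissue content cannot be told apart in this comparison. That holds for the calls kept with the terms as well as for these 9. Macrophage markers were 0 higher and 9 lower of 10 (605 to 1125 in EKO/hA-I). Their part in the result, and that of the chondrocyte-like and adventitial fibroblast markers, was not tested.

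Single libraries also ended 4 of these calls. For Col6a1 the adjusted p was 0.12 and 0.1 without EKO WD 22 weeks replicate 1 and 3 in turn, and 0.091 and 0.15 without EKO/hA-I WD 22 weeks replicate 1 and 2 in turn. For Col15a1 it was 0.14 and 0.093 without EKO WD 22 weeks replicate 1 and 3 in turn, and 0.065, 0.097 and 0.061 without EKO/hA-I WD 22 weeks replicate 1, 2 and 3 in turn. For Col23a1 it was 0.056 and 0.056 without EKO WD 22 weeks replicate 1 and 3 in turn, and 0.068 without EKO/hA-I WD 22 weeks replicate 1, and for Col7a1 0.058, 0.067 and 0.06 without EKO WD 22 weeks replicate 1, 2 and 3 in turn, and 0.12 without EKO/hA-I WD 22 weeks replicate 1. Col6a2 (-0.88 ± 0.38), Col14a1 (-0.65 ± 0.32), Col18a1 (-1.27 ± 0.53), Col4a1 (-0.39 ± 0.23) and Col4a2 (-0.49 ± 0.24) did not pass.

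Making and turnover genes were 1 higher and 23 lower of 50 in this comparison, beside 5.96% of all genes tested higher and 12.9% lower. Of these, modification genes were 0 higher and 7 lower of 15, cross-linking enzymes 0 higher and 4 lower of 5, proteases 0 higher and 4 lower of 6 and receptors 1 higher and 4 lower of 9. Ctsk read 21.6, 27.1 and 40.3 in EKO/hA-I and 342, 143 and 259 in EKO (-2.98 ± 0.35, adjusted p = 7.3e-07). P4ha3 read 0.943, 1.03 and 2.92 (-2.46 ± 0.30, adjusted p = 1.5e-06), and the membrane collagenase Mmp14 65.4, 70.4 and 150.2 against 426, 414 and 536 (-2.35 ± 0.34, adjusted p = 1.3e-05). In all 3 genes the 2 groups were apart.

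Against WT on the same diet, EKO/hA-I had 2 collagen genes higher and 9 lower, beside 8.51% of all genes tested higher and 9.46% lower. The minor type IV genes Col4a3 (-1.58 ± 0.31, adjusted p = 0.0025), Col4a4 (-1.14 ± 0.31), Col4a5 (-1.72 ± 0.34) and Col4a6 (-1.83 ± 0.36) were lower. So were Col19a1 (-1.87 ± 0.37), Col18a1 (-1.57 ± 0.53), Col15a1 (-1.29 ± 0.34), Col6a6 (-1.15 ± 0.34) and Col8a2 (-1.09 ± 0.33). Col6a5 and Col11a2 (0.92 ± 0.23) were higher. Col8a1 (0.76 ± 0.36), Col1a1 (-0.63 ± 0.43), Col3a1 (-0.47 ± 0.38) and Col5a2 (-0.54 ± 0.34) did not pass. The count was 6 without WT WD 22 weeks replicate 2 or EKO/hA-I WD 22 weeks replicate 2, and with the tissue terms 1, that of Col6a5. The skeletal muscle sum ranged from 39.2 to 620 (WT) against 1221 to 4204 (EKO/hA-I). For brown adipocyte markers the range was 3334 to 5754 (WT) against 6598 to 8343 (EKO/hA-I). Neither sum overlapped, so this comparison cannot separate genotype from tissue content, for the call of Col6a5 as well. Col6a6, Col8a2 and Col18a1 lost the call when any 1 of 4 of the 6 libraries was left out, Col4a4 for 2 of them, and Col11a2 and Col15a1 for 1. Smooth muscle markers were 0 higher and 10 lower of 10 (4715 to 12005 in EKO/hA-I) and macrophage markers 8 higher and 0 lower of 10, with endothelial markers 3 higher and 0 lower of 8, and their part was not tested.

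**Figure D3:**
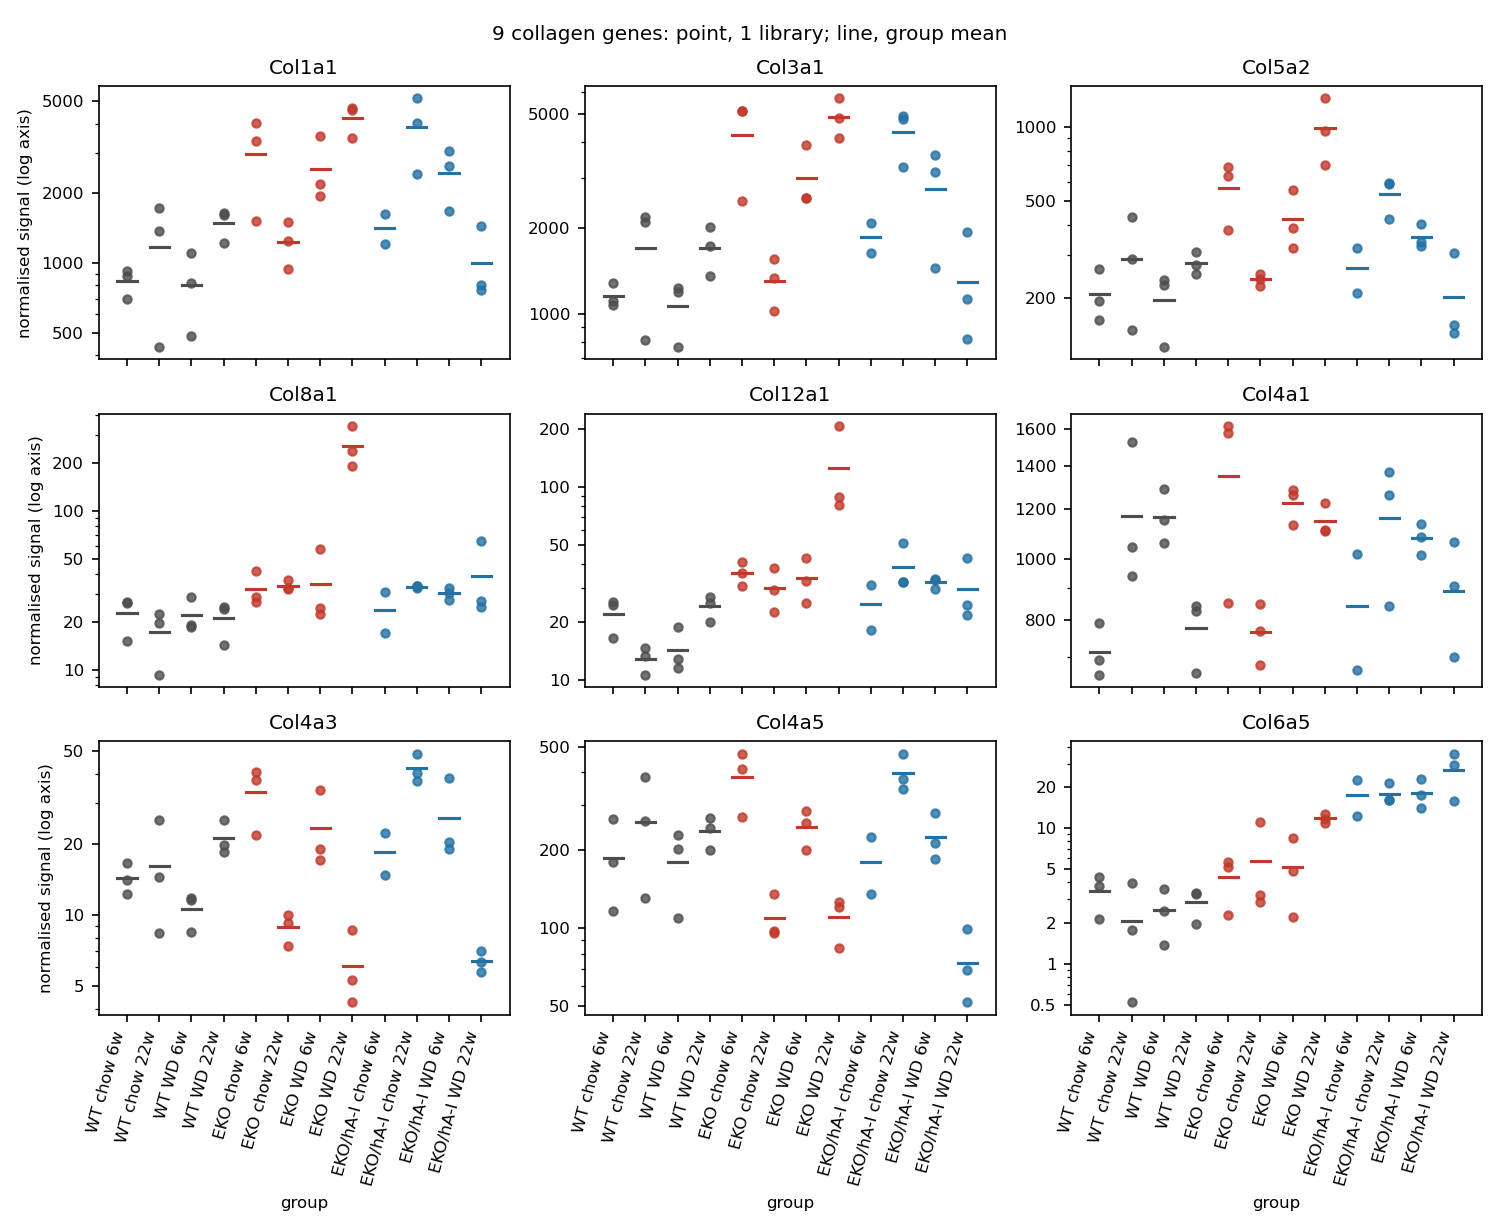
Normalised signal (log axis) of 9 collagen genes in each library (points) of the 12 groups (x axis), with the group mean as a line and colour by genotype. Col8a1 in the EKO WD 22 weeks libraries lies at 193 to 341 with every other library at or below 64.5, and Col6a5 lies at 12.2 to 35.5 in EKO/hA-I and at 0.521 to 4.35 in WT.

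The response to diet was then taken within each genotype at 22 weeks. In EKO, 14 collagen genes were higher on WD than on chow and 1 lower, beside 13.9% of all genes tested higher and 4.80% lower. Fibrillar genes were 7 higher (Col24a1 among them) and 0 lower of 10 and basement membrane genes 0 higher and 0 lower of 6. Col8a1 read 32.1, 36.9 and 32.6 on chow and 193 to 341 on WD (2.85 ± 0.36, adjusted p = 3.2e-06). Col5a2 read 252, 239 and 226 on chow (2.0 ± 0.34, adjusted p = 0.00011) and Col3a1 1564, 1334 and 1028 (1.91 ± 0.38, adjusted p = 0.00066), below every WD library. Col12a1 rose by 1.93 ± 0.30, Col1a1 by 1.80 ± 0.43, Col22a1 by 1.75 ± 0.34, Col6a4 by 1.5 ± 0.32 and Col6a3 by 1.38 ± 0.33. These 8 genes kept the call without any 1 library. The difference for Col24a1 was 1.97 ± 0.27. Col1a2 (1.16 ± 0.37, adjusted p = 0.027, but 0.13 without EKO chow 22 weeks replicate 3, and 0.12 and 0.082 without EKO WD 22 weeks replicate 1 and 3 in turn), Col10a1 (1.44 ± 0.36, adjusted p = 0.0054, but 0.052 without EKO chow 22 weeks replicate 3, and 0.091 without EKO WD 22 weeks replicate 1), Col5a1 (1.19 ± 0.37), Col5a3 (1.09 ± 0.33), Col16a1 (0.75 ± 0.24) and the transmembrane Col13a1 (-0.67 ± 0.23) did not. For Col5a1 the adjusted p was 0.053, 0.052 and 0.09 without EKO chow 22 weeks replicate 1, 2 and 3 in turn, and 0.12 and 0.066 without EKO WD 22 weeks replicate 1 and 3 in turn. For Col5a3 it was 0.057 and 0.083 without EKO chow 22 weeks replicate 1 and 3 in turn, and 0.061 and 0.062 without EKO WD 22 weeks replicate 2 and 3 in turn. For Col16a1 it was 0.05 and 0.14 without EKO chow 22 weeks replicate 2 and 3 in turn, and 0.14 and 0.067 without EKO WD 22 weeks replicate 1 and 3 in turn, and for Col13a1 0.13, 0.067 and 0.081 without EKO chow 22 weeks replicate 1, 2 and 3 in turn, and 0.33 and 0.078 without EKO WD 22 weeks replicate 1 and 2 in turn. The number of calls was 9 without EKO chow 22 weeks replicate 3. With the tissue terms the calls were 11 higher and 4 lower. Macrophage markers were 10 higher and 0 lower of 10 (554 to 1189.9 on chow), adventitial fibroblast markers 2 higher and 1 lower of 10 and chondrocyte-like markers 2 higher and 0 lower of 6, and their part was not tested. Collagen making and turnover genes were 14 higher and 0 lower of 50.

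In WT at 22 weeks, Col6a6 (1.38 ± 0.34) and Col8a2 (1.39 ± 0.33) were higher on WD and Col7a1 (-1.37 ± 0.23) and Col11a2 (-1.21 ± 0.23) lower, beside 0.925% of all genes tested higher and 0.438% lower. The calls came to 1 without WT chow 22 weeks replicate 3 or WT WD 22 weeks replicate 2 and 2 without WT chow 22 weeks replicate 2 or WT WD 22 weeks replicate 1, and 0 when only these 6 libraries were fitted. With the tissue terms 1 was higher and 2 lower. Adventitial fibroblast markers were 3 higher and 0 lower of 10 and cardiac muscle markers 0 higher and 0 lower of 8. The summed cardiac muscle level was 173 to 5906 on chow and 83.9 to 150 on WD. The part of both lists was not tested. Whether EKO and WT differ in their response to diet was tested as an interaction. It was positive for 6 collagen genes (Col24a1 among them) and negative for 2, beside 4.99% of all genes tested higher and 1.21% lower. The log2 response to WD was greater in EKO for Col8a1 (difference of 2.53 ± 0.51, adjusted p = 0.0029) and Col5a2 (1.94 ± 0.48). Col22a1 (1.96 ± 0.48), Col3a1 (1.80 ± 0.54) and Col4a1 (1.15 ± 0.32) were positive and Col8a2 (-1.86 ± 0.47, adjusted p = 0.016) and Col4a4 (-1.59 ± 0.44) negative. Col8a1 and Col8a2 kept the call under every alternative run. The value for Col24a1 was 2.27 ± 0.38. Col22a1 and Col5a2 lost it in a fit of the 4 groups alone (0.15 and 0.066), and Col5a2 was at 0.056 without EKO WD 22 weeks replicate 1. Col3a1 lost it when any 1 of 9 of the 12 libraries was left out, and Col4a1 and Col4a4 when any 1 of 6 was. Calls numbered 4 without EKO WD 22 weeks replicate 1 and 5 without WT WD 22 weeks replicate 1 or EKO chow 22 weeks replicate 2, and 3 in the fit of the 4 groups.

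In EKO/hA-I at 22 weeks 20 collagen genes were lower on WD than on chow and 2 higher, beside 20.7% of all genes tested higher and 17.5% lower. Basement membrane genes had a median log2 difference of -2.26. Col4a3 read 48.6, 37.1 and 40.4 on chow and 6.34, 5.74 and 7.04 on WD (-2.54 ± 0.31, adjusted p = 7.2e-05). Col4a5 (-2.46 ± 0.34), Col4a6 (-2.46 ± 0.36) and Col4a4 (-2.07 ± 0.31) were also lower. Col1a2 read 5176, 3320.0 and 4766 on chow and 969.6, 823 and 1373 on WD (-2.07 ± 0.37, adjusted p = 0.00049), and Col3a1 4829.7, 3273 and 4936 against 1129, 819 and 1930.3 (-1.82 ± 0.38, adjusted p = 0.0013). The diets did not overlap in these 3 genes. Col18a1 (-2.27 ± 0.53), Col1a1 (-1.95 ± 0.43), Col15a1 (-1.90 ± 0.34), Col19a1 (-1.82 ± 0.37), Col6a2 (-1.66 ± 0.38), Col5a1 (-1.63 ± 0.37), Col8a2 (-1.62 ± 0.33), Col6a1 (-1.57 ± 0.32), Col6a6 (-1.47 ± 0.34) and Col5a2 (-1.46 ± 0.34) were lower. So were Col6a3 (-1.36 ± 0.33), Col16a1 (-1.16 ± 0.24), Col14a1 (-1.14 ± 0.32, 0.069 without EKO/hA-I WD 22 weeks replicate 2) and Col23a1 (-0.83 ± 0.25, 0.063 without EKO/hA-I WD 22 weeks replicate 1). Col11a2 (0.87 ± 0.23) and Col7a1 (0.68 ± 0.23, 0.055 without EKO/hA-I chow 22 weeks replicate 2, and 0.083 without EKO/hA-I WD 22 weeks replicate 1) were higher.

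Marker genes moved in the same libraries. Skeletal muscle markers were 12 higher and 0 lower of 12, brown adipocyte markers 7 higher and 0 lower of 9 and smooth muscle markers 0 higher and 10 lower of 10. Adventitial fibroblast markers were 0 higher and 4 lower of 10 (3963 to 4556 on chow, 1839.8 to 3149 on WD), chondrocyte-like markers 0 higher and 3 lower of 6, macrophage markers 6 higher and 0 lower of 10 (314 to 379 and 605 to 1125) and endothelial markers 5 higher and 0 lower of 8. The part of these 4 lists and of the smooth muscle markers was not tested. The summed skeletal muscle level was 15.2 to 55.3 on chow and 1221 to 4204 on WD, the brown adipocyte level 1813 to 2245 and 6598 to 8343, and the smooth muscle level 27083 to 40753 and 4715 to 12005. With the tissue terms 0 of the 22 collagen calls were left (adjusted p from 0.27 to 0.92). The skeletal muscle and brown adipocyte levels did not overlap between the diets, so diet and tissue content cannot be told apart here. Genes of collagen making and turnover were 6 higher and 31 lower of 50, beside 20.7% of all genes tested higher and 17.5% lower.

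Duration was compared within genotype and diet. In EKO on WD, 8 collagen genes (Col24a1 among them) were higher at 22 than at 6 weeks and 6 lower, beside 10.5% of all genes tested higher and 2.97% lower. Col8a1 read 57.6, 24.5 and 22.6 at 6 weeks (2.94 ± 0.36, adjusted p = 1.7e-06) and Col12a1 43.1, 32.7 and 25.2 (1.77 ± 0.30, adjusted p = 0.00013), both below every library of 22 weeks. Col10a1 (1.74 ± 0.36), Col6a4 (1.44 ± 0.32), Col22a1 (1.40 ± 0.34, 0.079 without EKO WD 22 weeks replicate 1), Col5a2 (1.23 ± 0.34) and Col5a3 (1.09 ± 0.33) rose as well, and the difference for Col24a1 was 1.67 ± 0.27. Col1a1 (0.77 ± 0.43), Col1a2 (0.20 ± 0.37) and Col3a1 (0.73 ± 0.38) did not pass, and at 6 weeks read 1942 to 3527, 2295 to 3588 and 2542 to 3900.4. Col4a3 (-1.78 ± 0.31), Col4a4 (-1.61 ± 0.31), Col4a6 (-1.56 ± 0.36), Col4a5 (-1.16 ± 0.34), Col19a1 (-1.10 ± 0.37) and Col6a6 (-1.02 ± 0.34) fell. For Col5a2 the adjusted p was 0.073 and 0.057 without EKO WD 6 weeks replicate 2 and 3 in turn, and 0.096 without EKO WD 22 weeks replicate 1. For Col5a3 it was 0.14 and 0.087 without EKO WD 6 weeks replicate 1 and 3 in turn, and 0.087 and 0.079 without EKO WD 22 weeks replicate 2 and 3 in turn, and for Col4a5 0.059 and 0.1 without EKO WD 6 weeks replicate 1 and 3 in turn, and 0.11 without EKO WD 22 weeks replicate 2. Col19a1 lost the call when any 1 of 5 libraries was left out, and Col6a6 when any 1 of the 6 was. This count became 9 without EKO WD 6 weeks replicate 3. Smooth muscle markers were 0 higher and 5 lower of 10 and macrophage markers 10 higher and 0 lower of 10, with adventitial fibroblast markers 1 higher and 1 lower of 10, and their part was not tested. Making and turnover genes were 10 higher and 1 lower of 50.

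At 6 weeks no collagen gene passed between EKO/hA-I and EKO in limma's test. On WD 3 genes had an unadjusted p below the threshold (2 higher and 1 lower, smallest adjusted p 0.29), and on chow 12 (2 higher and 10 lower, smallest adjusted p 0.16, 2 against 3 libraries). The background was 0.0283% of all genes tested higher and 0.0424% lower on WD, and 0.0353% of all genes tested higher and 0.0424% lower on chow. Within EKO/hA-I on WD, Col4a3 (-1.80 ± 0.31, adjusted p = 0.013) and Col4a4 (-1.60 ± 0.31, adjusted p = 0.043) fell from 6 to 22 weeks, beside 0.0424% of all genes tested higher and 0.0283% lower. The total was 0 without EKO/hA-I WD 6 weeks replicate 3 or EKO/hA-I WD 22 weeks replicate 2, 1 without EKO/hA-I WD 6 weeks replicate 1 or EKO/hA-I WD 22 weeks replicate 1 and 4 without EKO/hA-I WD 22 weeks replicate 3, and 0 with the tissue terms or when only these 6 libraries were fitted. Summed brown adipocyte levels in EKO/hA-I on WD were 2524 to 6083 at 6 weeks and 6598 to 8343 at 22 weeks. They did not overlap, so duration and tissue content cannot be told apart there. The interaction of genotype with duration on WD was negative for 7 collagen genes and positive for 0, beside 0.615% of all genes tested higher and 4.51% lower. That of Col8a1 (-2.72 ± 0.51, adjusted p = 0.0017) held under every alternative run. The interaction was -2.12 ± 0.48 for Col5a2 and -1.93 ± 0.43 for Col12a1, both lost with the tissue terms (0.12 and 0.096). Col1a1 (-2.07 ± 0.61), Col3a1 (-1.79 ± 0.54), Col22a1 (-1.72 ± 0.48) and Col16a1 (-1.28 ± 0.34) were each lost when any 1 of 7 or more of the 12 libraries was left out. The count moved to 3 without EKO WD 6 weeks replicate 2 or EKO WD 22 weeks replicate 1 or EKO/hA-I WD 6 weeks replicate 2 or 3 or EKO/hA-I WD 22 weeks replicate 2 and 4 without EKO WD 6 weeks replicate 3 or EKO/hA-I WD 22 weeks replicate 1, 2 with the tissue terms and 3 in a fit of the 4 groups alone.

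On chow at 22 weeks, 19 collagen genes were higher in EKO/hA-I than in EKO and 1 lower, beside 13.7% of all genes tested higher and 14.9% lower. Col4a3 read 48.6, 37.1 and 40.4 in EKO/hA-I and 7.42, 10.0 and 9.29 in EKO (2.12 ± 0.31, adjusted p = 0.00015), and Col4a5 377, 344 and 470.1 against 96.3, 136 and 98.0 (1.85 ± 0.34, adjusted p = 0.00081). Col3a1 read 4829.7, 3273 and 4936 against 1564, 1334 and 1028 (1.73 ± 0.38, adjusted p = 0.0023). The groups did not overlap in these 3 genes. Col6a5 (1.68 ± 0.44, 0.051 without EKO chow 22 weeks replicate 3), Col4a4 (1.66 ± 0.31), Col1a1 (1.61 ± 0.43), Col1a2 (1.61 ± 0.37), Col6a6 (1.60 ± 0.34), Col4a6 (1.45 ± 0.36), Col19a1 (1.42 ± 0.37), Col6a1 (1.29 ± 0.32) and Col8a2 (1.26 ± 0.33) were higher. So were Col6a2 (1.24 ± 0.38), Col5a1 (1.23 ± 0.37), Col5a2 (1.14 ± 0.34), Col15a1 (1.07 ± 0.34), Col14a1 (0.99 ± 0.32), Col6a3 (0.99 ± 0.33) and Col16a1 (0.85 ± 0.24). Each of these last 7 was lost without EKO chow 22 weeks replicate 3 (adjusted p from 0.051 to 0.14), 6 of them also without EKO/hA-I chow 22 weeks replicate 1 and 6 without replicate 3 (0.055 to 0.092). Col13a1 was lower (-0.84 ± 0.23). The count was 13 without EKO chow 22 weeks replicate 3. Brown adipocyte markers were 0 higher and 6 lower of 9 (4493 to 8322 in EKO, 1813 to 2245 in EKO/hA-I) and smooth muscle markers 4 higher and 0 lower of 10 (13424 to 18605 and 27083 to 40753). Macrophage markers were 0 higher and 6 lower of 10 (554 to 1189.9 and 314 to 379), adventitial fibroblast markers 3 higher and 0 lower of 10 (2245 to 3303 and 3963 to 4556) and chondrocyte-like markers 1 higher and 0 lower of 6. Their part and that of the smooth muscle markers was not tested. With the tissue terms 5 calls were left, those of Col4a3, Col4a4, Col4a5, Col6a5 and Col6a6. The brown adipocyte levels did not overlap, so genotype and tissue content cannot be told apart in this comparison, for these 5 calls as well. Y-linked transcripts summed to 198 to 246 (EKO/hA-I) and 0.334 to 202 (EKO), and with a term for libraries without them 20 genes were called. Collagen making and turnover genes were 17 higher and 1 lower of 50.

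From 6 to 22 weeks on chow, 15 collagen genes fell in EKO and 0 rose, beside 13.3% of all genes tested higher and 13.7% lower. All 6 basement membrane genes were among them: Col4a5 (-1.78 ± 0.34, adjusted p = 0.0012), Col4a3 (-1.76 ± 0.31, adjusted p = 0.0008), Col4a6 (-1.33 ± 0.36), Col4a4 (-1.16 ± 0.31), Col4a1 (-0.77 ± 0.23) and Col4a2 (-0.74 ± 0.24). Col3a1 read 2478, 5135 and 5139.8 at 6 weeks and 1564, 1334 and 1028 at 22 weeks, without overlap (-1.64 ± 0.38, adjusted p = 0.0036). Col1a2 (-1.40 ± 0.37), Col19a1 (-1.38 ± 0.37), Col15a1 (-1.29 ± 0.34), Col5a2 (-1.20 ± 0.34), Col1a1 (-1.18 ± 0.43), Col6a3 (-1.07 ± 0.33), Col6a2 (-1.04 ± 0.38) and Col6a1 (-1.03 ± 0.32) fell as well. The number of calls was 4 without EKO chow 6 weeks replicate 3 and 9 without EKO chow 6 weeks replicate 2. Brown adipocyte markers were 6 higher and 0 lower of 9 (1615 to 2230.3 at 6 weeks) and smooth muscle markers 0 higher and 3 lower of 10. Macrophage markers were 5 higher and 0 lower of 10 and adventitial fibroblast markers 0 higher and 1 lower of 10. Their part and that of the smooth muscle markers was not tested. Col3a1, Col15a1, Col4a3 and Col4a5 kept the call whichever 1 library was left out. With the tissue terms 2 calls were left, those of Col4a3 and Col4a5. Summed brown adipocyte levels at 22 weeks (4493 to 8322) did not overlap those at 6 weeks. Duration and tissue content thus cannot be told apart here, for these 2 calls as well. Genes of collagen making and turnover were 0 higher and 13 lower of 50.

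EKO and WT were also compared at 6 weeks. On WD 13 collagen genes were higher in EKO and 2 lower, beside 3.94% of all genes tested higher and 1.5% lower. Col3a1 read 3900.4, 2558 and 2542 in EKO and 767, 1194 and 1233 in WT (1.5 ± 0.38, adjusted p = 0.021), and Col14a1, a FACIT collagen of fibril surfaces, 459.6, 333 and 328 against 101, 127 and 166 (1.52 ± 0.32, adjusted p = 0.0075). Both genes were without overlap. Col1a1 (1.70 ± 0.43), Col1a2 (1.37 ± 0.37), Col4a4 (1.36 ± 0.31), Col6a6 (1.30 ± 0.34), Col6a2 (1.27 ± 0.38), Col15a1 (1.26 ± 0.34), Col12a1 (1.17 ± 0.30), Col6a3 (1.13 ± 0.33), Col6a1 (1.12 ± 0.32), Col23a1 (1.10 ± 0.25) and Col16a1 (1.00 ± 0.24) were higher. Col11a2 (-1.13 ± 0.23) and Col7a1 (-0.83 ± 0.23) were lower. The calls came to 0 without WT WD 6 weeks replicate 1 or EKO WD 6 weeks replicate 1 and 7 without WT WD 6 weeks replicate 2, 0 when only these 6 libraries were fitted, and 2 with the tissue terms, those of Col14a1 and Col11a2. Adventitial fibroblast markers were 9 higher and 0 lower of 10 (1165 to 1626 in WT, 3011 to 3924 in EKO) and macrophage markers 5 higher and 0 lower of 10 (171 to 324 and 489 to 727), and their part was not tested. The summed brown adipocyte level was 7579.8 to 15274 in WT and 3579 to 9266 in EKO. Making and turnover genes were 9 higher and 0 lower of 50, and the smallest p was that of the cross-linking enzyme Loxl4 (1.54 ± 0.22, adjusted p = 0.00071).

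On chow at 6 weeks 9 collagen genes were higher in EKO and 1 lower, beside 2.27% of all genes tested higher and 2.71% lower. Col3a1 read 2478, 5135 and 5139.8 in EKO and 1072, 1109 and 1284 in WT, without overlap (1.81 ± 0.38, adjusted p = 0.012). Col1a1 (1.72 ± 0.43), Col1a2 (1.56 ± 0.37), Col5a2 (1.43 ± 0.34), Col15a1 (1.34 ± 0.34), Col6a3 (1.18 ± 0.33), Col4a3 (1.12 ± 0.31), Col4a2 (0.92 ± 0.24) and Col4a1 (0.87 ± 0.23) were higher, and Col13a1 (-0.82 ± 0.23) lower. Calls numbered 0 without WT chow 6 weeks replicate 1 or 2 or EKO chow 6 weeks replicate 2 or 3 and 19 without EKO chow 6 weeks replicate 1, 0 when only these 6 libraries were fitted, and 3 with the tissue terms, those of Col5a2, Col4a1 and Col4a2. Brown adipocyte markers were 0 higher and 2 lower of 9 (2542 to 6581 in WT, 1615 to 2230.3 in EKO), adventitial fibroblast markers 1 higher and 0 lower of 10 and endothelial markers 2 higher and 0 lower of 8. The brown adipocyte levels did not overlap, so genotype and tissue content cannot be told apart on chow at 6 weeks. Collagen making and turnover genes were 13 higher and 0 lower of 50. On chow at 22 weeks, Col12a1 (1.13 ± 0.30) and Col23a1 (0.76 ± 0.25) were higher in EKO than in WT and Col19a1 (-1.17 ± 0.37), Col4a5 (-1.11 ± 0.34) and Col7a1 (-0.98 ± 0.23) lower, beside 7.35% of all genes tested higher and 7.94% lower. There the number of calls was 1 without WT chow 22 weeks replicate 3 or EKO chow 22 weeks replicate 1, 3 without EKO chow 22 weeks replicate 3 and 10 without WT chow 22 weeks replicate 2, 8 with the tissue terms and 0 when only these 6 libraries were fitted. Col7a1 kept the call whichever 1 library was left out. Macrophage markers were 10 higher and 0 lower of 10 and fibroblast markers 7 higher and 0 lower of 10. Cardiac muscle markers were 0 higher and 2 lower of 8, with a summed level of 173 to 5906 in WT and 54.3 to 93.2 in EKO. The part of these lists was not tested.

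**Figure D4:**
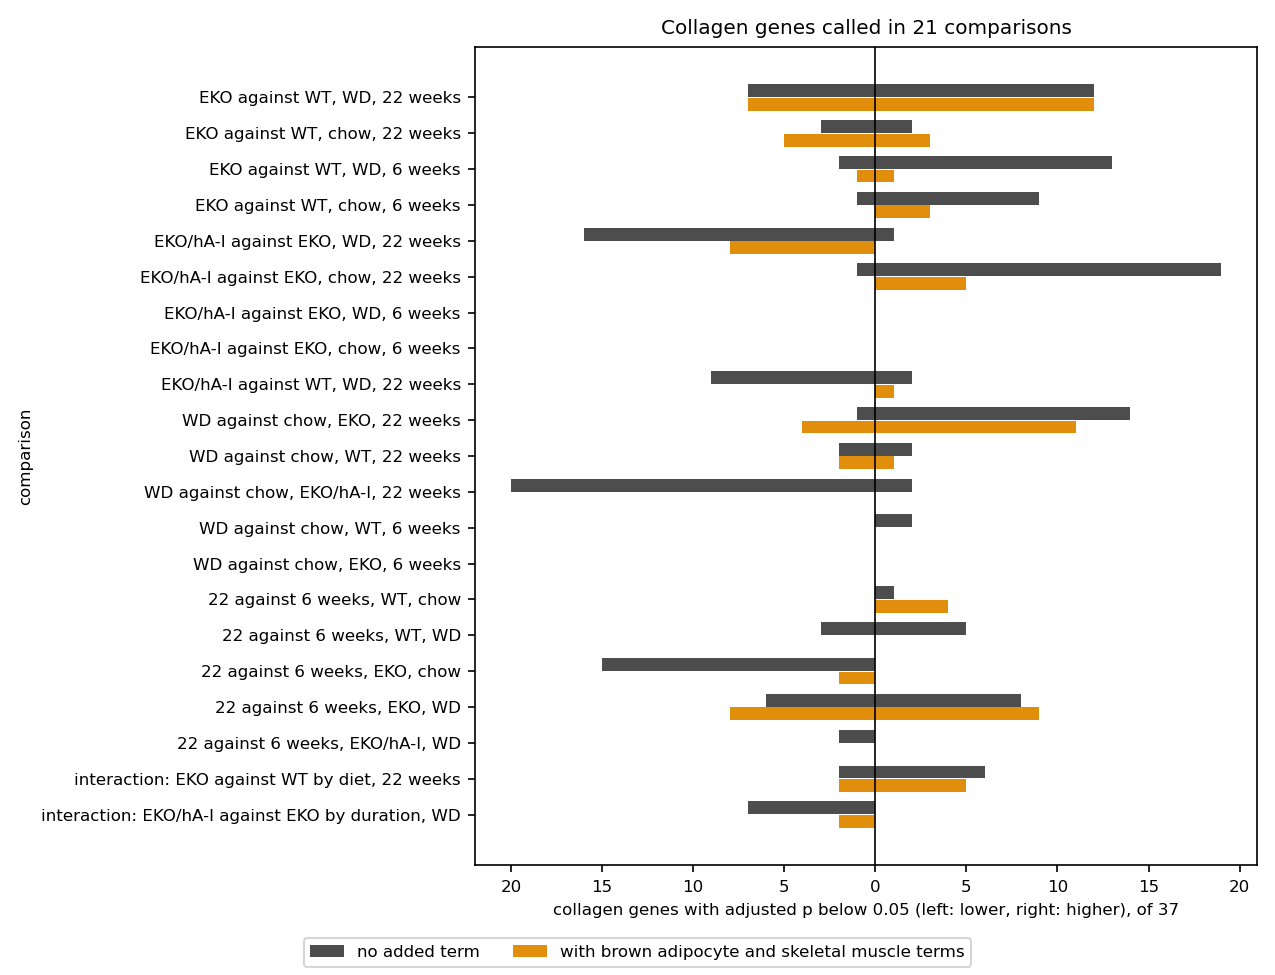
Number of collagen genes of 37 called lower (left of 0) and higher (right of 0) in each of 19 comparisons and 2 interactions (y axis), without and with the brown adipocyte and skeletal muscle terms. EKO against WT on WD at 22 weeks has 12 higher and 7 lower in both fits, and WD against chow in EKO/hA-I at 22 weeks goes from 22 calls to 0.

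In WT mice, Col7a1 and Col11a2, a minor fibrillar chain best known from cartilage, were called most often. Col7a1 read 9.59, 5.08 and 5.05 on chow against 17.0, 11.3 and 11.6 on WD at 6 weeks, and 14.4, 16.4 and 18.1 against 4.85, 5.24 and 7.17 at 22 weeks. Col11a2 read 14.2, 7.58 and 8.03 on chow against 26.1, 18.7 and 20.2 on WD at 6 weeks, and 19.6, 16.0 and 22.1 against 9.04, 6.55 and 7.71 at 22 weeks. On WD both were higher than on chow at 6 weeks (0.95 ± 0.23, adjusted p = 0.034, and 1.09 ± 0.23, adjusted p = 0.023) and lower at 22 weeks. At 6 weeks these were the only 2 collagen calls for diet, beside 0.834% of all genes tested higher and 0.600% lower. Their number was 0 without WT chow 6 weeks replicate 2 or 3 or WT WD 6 weeks replicate 1 or 3, and 0 with the tissue terms or when only these 6 libraries were fitted. Summed brown adipocyte levels at 6 weeks were 2542 to 6581 on chow and 7579.8 to 15274 on WD. They did not overlap, so diet and tissue content cannot be told apart at 6 weeks. On chow, Col7a1 was the 1 call between 6 and 22 weeks (1.24 ± 0.23, adjusted p = 0.021), beside 0.0353% of all genes tested higher and 0.0848% lower. This count became 0 without WT chow 6 weeks replicate 2 or 3 or WT chow 22 weeks replicate 3 and 2 without WT chow 6 weeks replicate 1, 0 when only these 6 libraries were fitted and 4 with the tissue terms.

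On WD in WT, Col6a6 (1.72 ± 0.34), Col8a2 (1.44 ± 0.33), Col14a1 (1.38 ± 0.32), Col4a4 (1.26 ± 0.31) and Col23a1 (0.93 ± 0.25) were higher at 22 than at 6 weeks and Col11a2 (-1.37 ± 0.23, adjusted p = 0.0029), Col7a1 (-1.07 ± 0.23) and Col13a1 (-0.76 ± 0.23) lower, beside 3.21% of all genes tested higher and 3.46% lower. The total was 2 without WT WD 6 weeks replicate 1 and 3 without WT WD 22 weeks replicate 1 or 2, 5 when only these 6 libraries were fitted and 0 with the tissue terms. Summed brown adipocyte levels were 7579.8 to 15274 at 6 weeks and 3334 to 5754 at 22 weeks. They did not overlap, so duration and tissue content cannot be told apart here. Col6a6 and Col11a2 kept the call whichever 1 library was left out. Fibroblast markers were 7 higher and 0 lower of 10 and endothelial markers 0 higher and 4 lower of 8, and their part was not tested. In EKO at 6 weeks limma's test gave 0 calls for diet (0 at an unadjusted p below the threshold, smallest adjusted p 0.27), beside 0.0636% of all genes tested higher and 0.0212% lower.

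By its median over diets and durations, Col6a5 was highest in EKO/hA-I and lowest in WT. It lies on chromosome 9 (105856078 to 105960643) between Col6a6 (105687809 to 105828160) and Col6a4 (105989454 to 106096783), which encode the other alternative chains of type VI collagen. In the 11 EKO/hA-I libraries it read 12.2 to 35.5 (median 17.6), in the 12 EKO libraries 2.22 to 12.7 and in the 12 WT libraries 0.521 to 4.35. EKO/hA-I and WT did not overlap. EKO/hA-I and EKO overlapped between 12.2 and 12.7, and EKO and WT between 2.22 and 4.35. On WD at 22 weeks Col6a5 read 15.9, 35.5 and 29.1 in EKO/hA-I, 10.9, 12.7 and 11.8 in EKO and 3.33, 3.27 and 1.97 in WT. The difference of EKO/hA-I from WT (2.80 ± 0.44, adjusted p = 0.00058) held under every alternative run. Skeletal muscle and brown adipocyte levels did not overlap between these groups either, so that comparison cannot separate genotype from tissue content. EKO/hA-I was above EKO on chow at 22 weeks (1.68 ± 0.44), and the difference on WD at 22 weeks did not pass (1.05 ± 0.44). EKO against WT passed on WD at 22 weeks only. Col6a5 was called in 3 comparisons of 2 groups and not in 16. Its neighbour Col6a6 read 9.90 to 14.4 in EKO/hA-I on WD at 22 weeks and 22.1 to 44.1 in WT, and Col6a4 0.102 to 1.99 and 0.109 to 0.917.

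The chains of one trimer kept a narrow ratio in many groups. Per kilobase, Col4a1 to Col4a2 stayed between 1.06 and 1.47 and Col6a1 to Col6a2 between 0.933 and 1.35 in all 35 libraries. Col1a1 to Col1a2 was 1.14 to 1.28 in the 3 EKO WD 22 weeks libraries and 0.531 to 0.944 in the other 32. Col5a1 to Col5a2 was 0.462 to 0.638 in EKO WD 22 weeks and at least 0.795 elsewhere, and Col8a1 to Col8a2 56.8 to 103 against 1.51 to 14.5. Col6a1 to Col6a3 was 1.44 to 2.35 in EKO WD 22 weeks and 2.28 to 3.74 in EKO chow 6 weeks, which overlap. EKO WD 22 weeks lay apart from every other group in the ratios of collagens I, V and VIII, a description with no test.

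**Figure D5:**
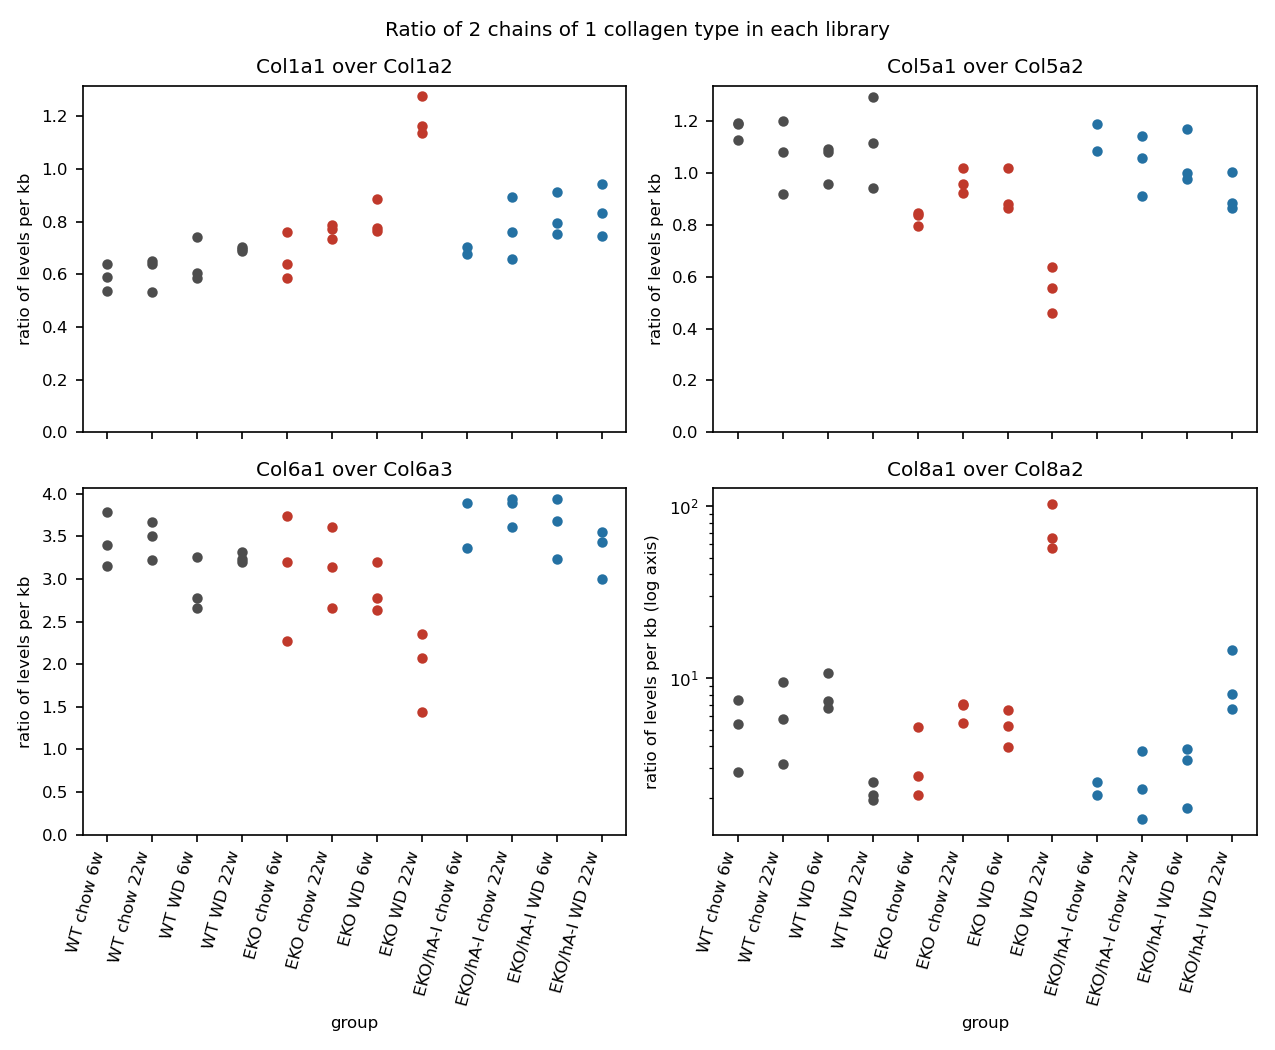
Ratio of the levels per kilobase of 2 chains of 1 collagen type (y axis, a log axis for Col8a1 over Col8a2) in each library (points) of the 12 groups (x axis), coloured by genotype. In EKO WD 22 weeks Col1a1 over Col1a2 lies at 1.14 to 1.28 and Col8a1 over Col8a2 at 56.8 to 103.

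Partner chains also varied together from library to library. With group means removed (n = 35 libraries, 8 pairs, 100000 permutations, two-sided), Pearson's r was 0.987 (rho 0.969) for Col6a1 with Col6a2, 0.973 (rho 0.962) for Col1a1 with Col1a2 and 0.952 (rho 0.946) for Col5a1 with Col5a2. It was 0.943 (rho 0.945) for Col4a1 with Col4a2, 0.931 (rho 0.913) for Col4a3 with Col4a4 and 0.890 (rho 0.842) for Col6a1 with Col6a3. Col1a1 with Col3a1, of different trimers, gave 0.926 (rho 0.924). The permutation p of each of these 7 r values was 1e-05, the smallest these permutations can give (1.1e-05 adjusted over the pairs), and that of rho 1e-05 or 2e-05 (1.3e-05 or 2.3e-05 adjusted). Without the 2 libraries farthest from the median these r values lay between 0.887 and 0.985. Col8a1 with Col8a2 gave 0.40 (rho 0.418), with permutation p = 0.028 and 0.031, the same after adjustment. That r was 0.346 without the 2 farthest libraries and 0.296 with the tissue terms. Among the 300 pairs of the 25 collagen genes with a mean of at least 10, the median r was 0.573 and the range -0.522 to 0.987. All pairs share the same libraries, their depth and the tissue sampled.

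The 4 collagen genes not yet described passed in no comparison of 2 groups. Col27a1, a fibrillar chain of cartilage, ranged over the 35 libraries from 50.2 to 143, Col20a1 from 6.55 to 12.3, Col28a1 from 2.23 to 37.4 and Col11a1 from 0.171 to 5.44.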

How the data were processed

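RNA-seq of 35 mouse aortas was deposited by the authors as 1 table of normalised signal for 14174 genes, with no counts. In the submitters' processing notes stand RSEM, Bowtie2 and Bowtie 0.12.2, and the genome builds mm9 and mm8, whose roles are not stated. The scaling is not given in the sources used here. Totals of the deposited signal were 907492 to 1137737 per library. Of values up to 1.5, 71.6 to 82.1% were whole multiples of 1 read within 0.02 reads, so no count test was run, and depth is an inference (6850000 to 25330000 reads).

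Values were tested as log2(value + 1) in limma 3.58.1 (R 4.3.3) with 1 fit over the 12 groups, for genes at 1 or more in at least 3 libraries (14157 genes, 17 removed), with Benjamini-Hochberg adjustment over all genes and a threshold of 0.05. There were 19 comparisons of 2 groups and 2 interactions. Fold changes on this scale understate the change of low genes. Levels per kilobase used the longest principal transcript of GENCODE M21, and gene positions are from the same annotation.

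The alternatives fitted only the compared groups, or used the replicate number as a block, pseudocounts of 0.1 and 5, no filter, median-ratio rescaling, terms for brown adipocyte and skeletal muscle markers, each library left out and, added after seeing the data, a Y-linked transcript term (present or not in a library). The labels do not say that replicate numbers mark a shared source. Same-numbered libraries deviated together in every pair in 2 comparisons, 22 against 6 weeks on WD in WT (r from 0.132 to 0.339) and in EKO (0.122 to 0.439). The labels give no batch. The script was tested on simulated data.

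The collagen members and the pathway and marker lists were chosen with earlier results of these data known. The text names the 15 major chains (Col1a1, Col1a2, Col3a1, Col4a1, Col4a2, Col5a1, Col5a2, Col6a1, Col6a2, Col6a3, Col8a1, Col12a1, Col14a1, Col15a1, Col18a1), other members where they passed, members that never passed in 1 place, and at most 4 pathway genes of smallest p per comparison.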

Additional observations from a re-analysis of the deposited data

Results flagged for a closer look

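The 15 results below were singled out because an interaction term passed the threshold in the fit over the 12 groups. In fits of the compared groups alone, 3 calls were left for each interaction. Several were also lost when 1 library was left out, as given above. The WD against chow difference at 22 weeks differed between EKO and WT (EKO minus WT, log2, limma's adjusted p) by 2.53 for Col8a1 (0.0029), 1.96 for Col22a1 (0.014), 1.94 for Col5a2 (0.014), 1.80 for Col3a1 (0.043) and 1.15 for Col4a1 (0.031). It differed by -1.86 for Col8a2 (0.016) and by -1.59 for Col4a4 (0.03). The value for Col24a1 was 2.27, given with no p because this gene passed the filter only through EKO on WD at 22 weeks.

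The EKO/hA-I against EKO difference on WD differed between 22 and 6 weeks (22 minus 6, log2) by -2.72 for Col8a1 (0.0017), -2.12 for Col5a2 (0.0074), -2.07 for Col1a1 (0.043), -1.93 for Col12a1 (0.0065), -1.79 for Col3a1 (0.05, below the threshold before rounding), -1.72 for Col22a1 (0.035) and -1.28 for Col16a1 (0.026). Under every alternative run, Col8a1 and Col8a2 kept the first interaction and Col8a1 the second.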

How the results depend on the processing

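No result reversed. Of the 195 calls of single genes, all 195 were kept with median-ratio rescaling and with no filter, and 6 were lost with a pseudocount of 0.1, 5 with a pseudocount of 5, 1 with the replicate block, 3 with the Y-linked term, 64 in fits of the compared groups alone and 113 with the tissue terms. Leaving out 1 library ended 338 of 1260. Where a call changed without a stated reason, the cause was not tested.

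In fits of the compared groups alone the number of collagen calls was 0 for EKO against WT on chow at 22 weeks, on WD at 6 weeks and on chow at 6 weeks, for WD against chow in WT at 22 and at 6 weeks, and for 22 against 6 weeks in WT on chow and in EKO/hA-I on WD. It was 5 for WT on WD and 3 and 3 for the interactions. These fits have fewer samples. With the tissue terms it was 8, 2 and 3 for EKO against WT on chow at 22, WD at 6 and chow at 6 weeks, 8 and 5 for EKO/hA-I against EKO on WD and chow at 22 weeks, 1 against WT, 0 and 0 for diet in EKO/hA-I at 22 and WT at 6 weeks, 4, 0, 2 and 0 for duration in WT on chow, WT on WD, EKO on chow and EKO/hA-I on WD, and 2 for the second interaction. Where the summed brown adipocyte or skeletal muscle level did not overlap between 2 groups, group and tissue content cannot be told apart. Split by direction, the tissue terms gave 11 higher and 4 lower for diet in EKO at 22 weeks (14 and 1 without them) and 1 and 2 in WT (2 and 2). The r of Col8a1 with Col8a2 was 0.296. The replicate block and the Y-linked term each gave 4 for duration in EKO/hA-I on WD. In the 2 comparisons in which same-numbered libraries deviated together, the replicate block left the counts at 5 higher and 3 lower in WT and 8 and 6 in EKO. The labels give no pairing. Elsewhere the block gave 0 to 23 calls, within 1.5 times the count without it except in EKO/hA-I on WD from 6 to 22 weeks.

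Leaving out 1 library gave a count of 15 to 18 for EKO against WT WD 22 weeks, 1 to 10 for EKO against WT chow 22 weeks, 0 to 18 for EKO against WT WD 6 weeks, 0 to 19 for EKO against WT chow 6 weeks and 13 to 17 for EKO/hA-I against EKO WD 22 weeks. It gave 13 to 22 for EKO/hA-I against EKO chow 22 weeks, 0 throughout for EKO/hA-I against EKO WD 6 weeks, 0 throughout for EKO/hA-I against EKO chow 6 weeks, 6 to 10 for EKO/hA-I against WT WD 22 weeks and 9 to 13 for WD against chow EKO 22 weeks. It gave 1 to 6 for WD against chow WT 22 weeks, 21 to 23 for WD against chow EKO/hA-I 22 weeks, 0 to 2 for WD against chow WT 6 weeks, 0 throughout for WD against chow EKO 6 weeks and 0 to 2 for 22 against 6 weeks WT chow. It gave 2 to 7 for 22 against 6 weeks WT WD, 4 to 21 for 22 against 6 weeks EKO chow, 9 to 13 for 22 against 6 weeks EKO WD, 0 to 4 for 22 against 6 weeks EKO/hA-I WD and 4 to 11 for the interaction EKO against WT by diet 22 weeks. It gave 3 to 8 for the interaction EKO/hA-I against EKO by duration WD. The r of Col8a1 with Col8a2 was then 0.324 to 0.453.

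Depth limits the genes near 1, such as Col24a1 and Col6a4, and with 2 or 3 libraries a group 1 aorta can decide a call.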
